A study of Homo sapiens with 40 samples.

Results

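The 6 genes described here are cathepsin K (CTSK) and its neighbours on chromosome 1q21, in genomic order ENSA, GOLPH3L, HORMAD1, CTSS, CTSK and ARNT, out of 19447 protein-coding genes scored in the series. They were chosen by position around CTSK, and CTSK was itself selected on its measured gain of H3K27me3 in the NSD2 knockout (KO) and degron clones. The coverage of the 6 genes in those contrasts is therefore given as a description with no test. The series used KMS-11, a human multiple myeloma line with the t(4;14) translocation that drives overexpression of the methyltransferase NSD2. H3K27me3 was mapped by CUT&Tag, in which a tethered transposase cuts DNA beside the modification, and the authors' peak lists of 30 libraries, 2 for each of 15 groups, were used. The value given for a gene is its covered percent, the share of its body from first to last annotated base that fell in peaks.

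The KO experiment compared a KMS-11 parental line with NSD2 KO clones 3 and 12. The degron experiment used KMS-11 clones 8 and 11 with an NSD2-dTAG knock-in, at days 0, 7, 14 and 21 of dTAGV-1, a compound that brings a dTAG-tagged protein to the VHL ubiquitin ligase for degradation. The dTAG parental line, without the tag, was sampled on the same days. The protocol gives 100 nM for the NSD2-dTAG cells and does not state a dose for the untagged line. Each KO or degron line is a single clone, so clone and genotype can be told apart only by the agreement of 2 clones. The 16 libraries of the KO clones and of the treated NSD2-dTAG clones are called NSD2-depleted below after their labels; NSD2 protein was not measured in these files. The other 14 libraries are the parental lines and the clones at day 0.

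H3K27me3 is laid down by Polycomb repressive complex PRC2 and marks silent genes, while NSD2 deposits H3K36me2, a modification on which PRC2 works poorly. CTSK encodes cathepsin K, the lysosomal cysteine protease with which osteoclasts digest bone collagen, and bone destruction is a hallmark of myeloma. CTSS encodes cathepsin S, a related protease that cleaves the invariant chain of MHC class II in antigen-presenting cells. HORMAD1 encodes a meiotic chromosome axis protein that is normally limited to germ cells. GOLPH3L encodes a Golgi membrane protein, ENSA an inhibitor of the phosphatase PP2A in mitosis, and ARNT the shared partner of hypoxia-inducible factors and of the dioxin receptor.

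On hg38, ENSA lay at chr1:150621246-150629612, GOLPH3L at chr1:150646230-150697154, HORMAD1 at chr1:150698060-150720895, CTSS at chr1:150730188-150765778, CTSK at chr1:150796208-150808260 and ARNT at chr1:150809713-150876599. The block from the first base of ENSA to the last base of ARNT spans 255 kb. Strong peaks at 4 places in it were part of at least 29 of the 30 libraries, and the NSD2-depleted libraries added weaker peaks between them. The promoters of 3 genes with RefSeq entries (GRCh38.p14) are shown because these are the sites where the invariant peaks lay. Each sequence is the 250 bases before the annotated start, on the minus strand, with CG dinucleotides in capitals.
ENSA, chr1:150629613-150629862: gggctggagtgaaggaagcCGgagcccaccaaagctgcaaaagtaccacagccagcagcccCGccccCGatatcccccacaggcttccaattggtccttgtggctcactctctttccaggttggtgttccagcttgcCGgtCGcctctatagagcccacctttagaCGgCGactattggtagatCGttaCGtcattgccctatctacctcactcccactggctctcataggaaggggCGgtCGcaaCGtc
GOLPH3L, chr1:150697155-150697404: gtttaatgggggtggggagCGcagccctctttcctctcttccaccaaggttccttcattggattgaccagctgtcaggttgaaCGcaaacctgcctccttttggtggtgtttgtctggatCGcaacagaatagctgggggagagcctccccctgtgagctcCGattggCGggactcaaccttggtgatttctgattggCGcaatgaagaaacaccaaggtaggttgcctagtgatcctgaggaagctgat
ARNT, chr1:150876600-150876849: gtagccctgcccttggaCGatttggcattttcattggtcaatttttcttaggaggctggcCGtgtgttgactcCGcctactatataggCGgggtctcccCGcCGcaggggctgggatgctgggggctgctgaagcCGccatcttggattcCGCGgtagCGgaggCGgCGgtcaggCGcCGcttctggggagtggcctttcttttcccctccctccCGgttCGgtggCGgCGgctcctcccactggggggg

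The ENSA promoter shown held 12 CG dinucleotides and was at least 99.6% inside a peak in all 30 libraries. A second ENSA entry (chr1:150629140-150629389), within the gene body, held 16 and was 100% inside a peak in all 30. The ARNT promoter held 18 and was 100% inside a peak in all 30. The GOLPH3L promoter held 6, and at least 50% of it was covered in 29 of 30 libraries. Of 21729 promoter windows in the RefSeq table, 23.6% had at least 50% of their bases covered in all 30 libraries, and the median window held 17 CG dinucleotides. The median was 24 in the windows covered to that extent in all libraries and 4 in those so covered in none. Windows with at least 12, 18 and 6 made up 62.3%, 47.7% and 75.4% of the table. Among the NSD2-depleted libraries the strongest -log10 q at the ENSA peak ran from 62.2 to 190, at the GOLPH3L peak from 24.9 to 164 and at the ARNT peak from 18.9 to 90.0. Another invariant peak (chr1:150770850-150771563) lay between CTSS and CTSK, outside every protein-coding gene, with -log10 q of 17.2 to 41.8 in the NSD2-depleted libraries and 11.2 to 67.8 in the others. The IgG libraries of the series were not analysed, so how far these invariant peaks reflect H3K27me3 itself was not tested. CTSK, CTSS and HORMAD1 have no entry in the promoter table.

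The length in peaks differed between groups and has to be read beside every value below. The NSD2-depleted libraries had 78.3 to 168 Mb of the genome in peaks and the others 36.1 to 99.8 Mb. Read depth is not given. A stand-in for it, the background pileup assumed by the peak caller, was estimated at 1.61 to 2.84 fragments per base in the former and 0.922 to 3.26 in the latter. These pooled ranges overlap, but the pileup differed within each experiment. In the degron clones it averaged 1.44 ± 0.601 at day 0 and 2.23 ± 0.367 once treated (SD, n = 4 and 12). It averaged 2.04 ± 0.760 in the KO parental line and 2.49 ± 0.339 in the KO clones (SD, n = 2 and 4). The libraries are bulk, so more cells with the mark and more mark per cell cannot be told apart. Because H3K27me3 coverage says nothing direct of expression, marker genes were only described: 4 of 8 plasma cell genes had a mean coverage under 5%, against 1 of 5 B cell, 2 of 5 T cell and 2 of 6 osteoclast or macrophage genes, and the plasma cell gene SLAMF7 was 34.8% covered.

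CTSK was outside peaks in the KO parental line and partly inside peaks in both KO clones. Its covered percent was 0 in both KO parental libraries, 38.1% and 29.1% in the libraries of KO clone 3, and 31.7% and 15.5% in those of clone 12. All 4 KO libraries were above both parental libraries, with a mean of 28.6% ± 9.52 (SD, n = 4) against 0 (n = 2). In the degron clones at day 0, CTSK was 10.5% and 0% covered in clone 8 and 0% in both libraries of clone 11. At day 7 the values were 18.4% and 31.0% in clone 8 and 36.9% and 24.6% in clone 11. The day 14 libraries were at 32.1% and 20.3% for clone 8 and 41.2% and 24.6% for clone 11, and those of day 21 at 40.0% and 29.4% and at 32.9% and 30.6%. Every treated library was above every day 0 library. How many of all genes separate in this way, here or in the KO experiment, was not counted. The mean was 2.62% ± 5.24 at day 0, 27.7% ± 8.02 at day 7, 29.5% ± 9.16 at day 14 and 33.2% ± 4.76 at day 21 (SD, n = 4 each). The 3 treated days share the same day 0 libraries.

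CTSS, the other protease, was covered to a like extent. Its covered percent was 2.09% and 1.18% in the KO parental libraries, 30.8% and 30.5% in KO clone 3, and 14.1% and 18.2% in KO clone 12. In the degron clones it averaged 1.25% ± 1.22 at day 0, with 3 of 4 libraries above 0, and 24.7% ± 2.99 at day 7, 25.1% ± 5.91 at day 14 and 24.5% ± 5.18 at day 21 (SD, n = 4 each). The lowest treated library was at 17.2% and the highest day 0 library at 2.93%. HORMAD1 differed in starting with coverage in the dTAG lines. It was 2.21% and 2.63% covered in the KO parental libraries, 27.4% and 18.3% in KO clone 3, and 15.6% and 9.61% in KO clone 12. In the degron clones it averaged 5.33% ± 3.89 at day 0, 19.4% ± 2.88 at day 7, 17.4% ± 3.51 at day 14 and 20.1% ± 3.34 at day 21 (SD, n = 4 each). The lowest treated library, at 12.9%, lay above the highest day 0 library of the clones, at 8.74%. As for CTSK, the share of all genes that separate in this way was not counted.

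The 3 outer genes had little coverage in every library. ENSA was between 5.65% and 10.2% covered in all 30 libraries, and its median was 5.65% in the NSD2-depleted libraries and in the others; at 5.65% the covered part was the end of the gene next to the promoter shown above. In the KO clones GOLPH3L reached 2.36% ± 0.965 (SD, n = 4), and it was at most 1.10% in any treated degron library. ARNT reached 3.61% ± 1.52 in the KO clones, against 0.836% ± 0.256 in their parental line (SD, n = 4 and 2). In the degron clones ARNT averaged 0.784% ± 0.276 at day 0, 2.43% ± 1.14 at day 7, 2.76% ± 1.10 at day 14 and 1.79% ± 1.38 at day 21 (SD, n = 4 each). The clones parted at day 21: clone 8 averaged 2.77%, against 0.716% at day 0. Clone 11 averaged 0.816%, against 0.852% at day 0. The gain of ARNT lay away from its promoter: without the 1 kb next to the start it was 2.11% covered on average in the NSD2-depleted libraries and 0.175% in the others. GOLPH3L averaged 0.491% over all libraries and did not reach the 1% mean needed for a test, so 5 of the 6 genes entered the fit across 13975 genes. The members just inside and outside that limit were ARNT, at 1.79%, and GOLPH3L.

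**Figure D1:**
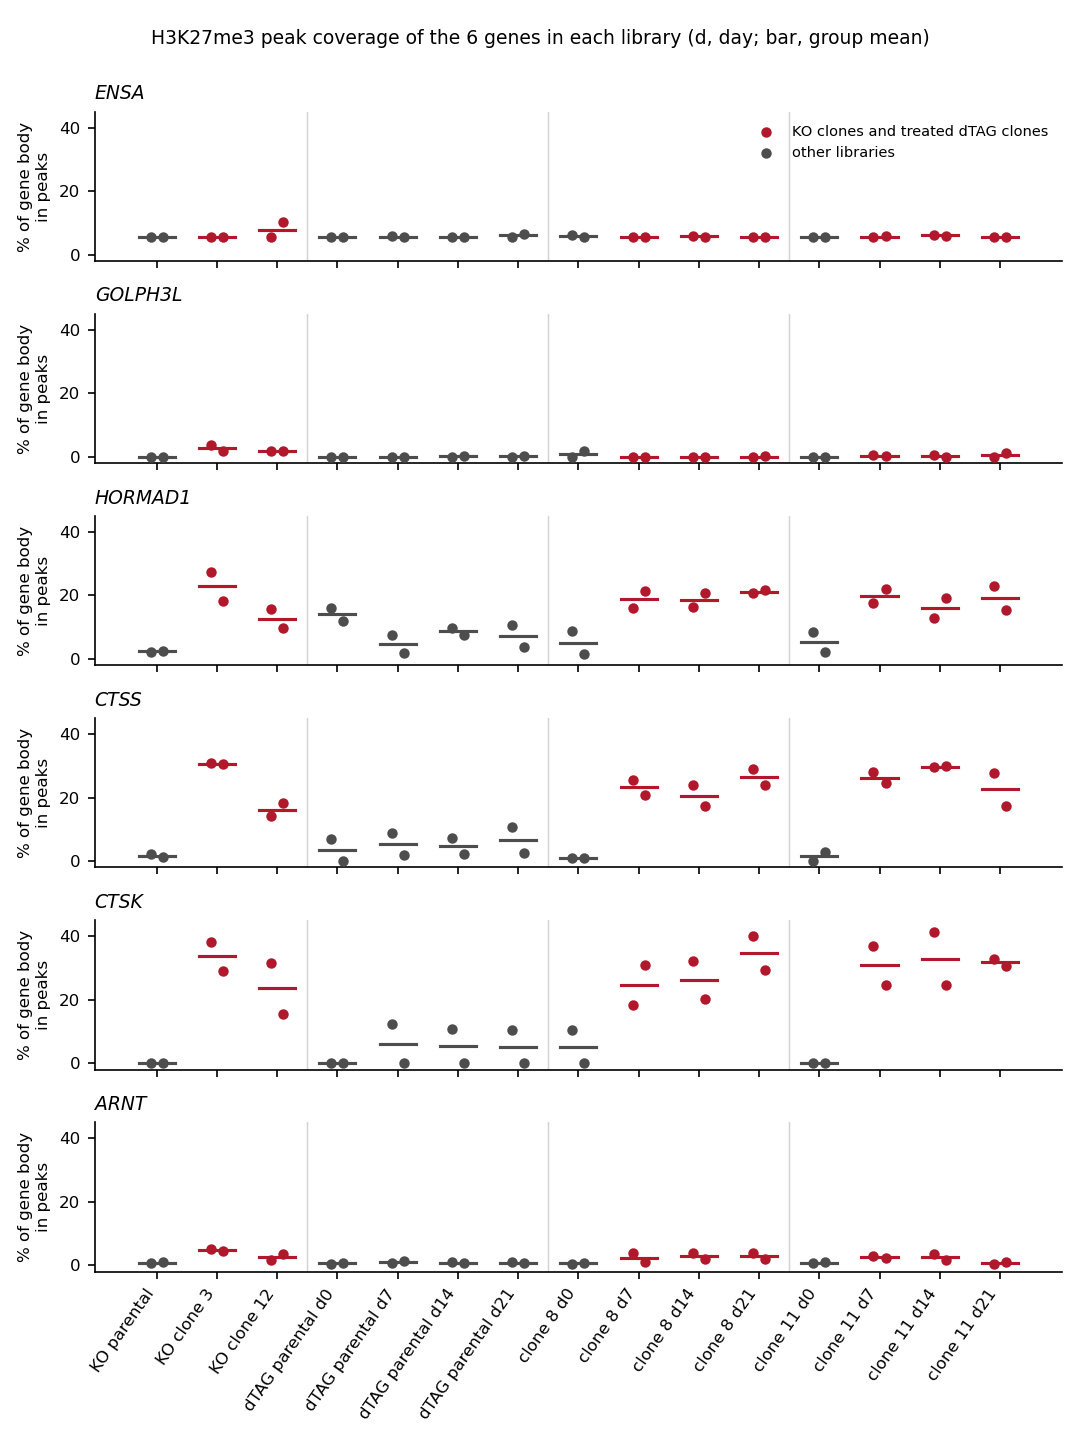
Percent of each gene body inside H3K27me3 peaks (y axis) in each library, by group (x axis); points are libraries, bars are group means of 2, and red marks the KO clones and the treated dTAG clones. CTSK, CTSS and HORMAD1 are high in the red groups, while ENSA stays near 5.65% and GOLPH3L and ARNT stay low throughout.

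Over all 13975 tested genes, limma with Benjamini-Hochberg adjustment called 18.7% in the KO contrast, 21.4% at day 7, 22.7% at day 14 and 26.9% at day 21. CTSK was chosen on these contrasts, so no call is given for the 6 genes. Most of the called genes gained coverage, 2510 against 104 losses in the KO contrast and 3697 against 69 at day 21. With coverage scaled by the length in peaks of each library, these became 1515 against 1882 and 2177 against 4452, and the median difference over all genes moved from 1.46 to -1.31 points for KO and from 2.05 to -1.36 for day 21. On that scale the CTSK difference was 19.9 points in the KO contrast and 22.8 points at day 21.

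The gain on CTSK consisted of weak peaks. Each NSD2-depleted library had 2 to 4 peaks on the gene, with the authors' -log10 q between 1.21 and 5.25 and fold enrichment between 1.97 and 3.55. The strongest CTSK peak of each of these libraries stood above 48.4% to 86.4% of the peaks in its own list. Of the other 14 libraries, 4 had a peak on CTSK, with -log10 q of 1.49 to 2.59. When only peaks with -log10 q of at least 5 were kept, the KO difference in CTSK coverage was 0 points and the day 21 difference 3.77 points, against 28.6 and 30.6 points with all peaks. When every list was shortened to the length of the shortest, keeping its strongest peaks, the differences were 5.25 points for KO and 10.4 points for day 21. With only peaks of at least 3-fold enrichment, CTSK differed by 0 points in both contrasts and CTSS by -0.516 and -0.326 points.

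Libraries of like total length could be set side by side. Between 75 and 100 Mb in peaks there were 5 libraries with NSD2 and 4 NSD2-depleted ones, a range chosen after the values were seen. Since CTSK was selected on these values, the ranges are a description, and the part of list length in them was not tested. The 5 had CTSK coverage of 0% to 12.3% with a background pileup of 1.93 to 3.26, and the 4 had 15.5% to 30.6% with a pileup of 1.61 to 2.04. For CTSS the ranges were 2.09% to 10.6% and 17.2% to 25.5%, again without overlap. For HORMAD1 they were 2.21% to 16.2% and 9.61% to 20.9%, and these overlapped. The share of all genes that separate between these libraries was not counted.

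**Figure D2:**
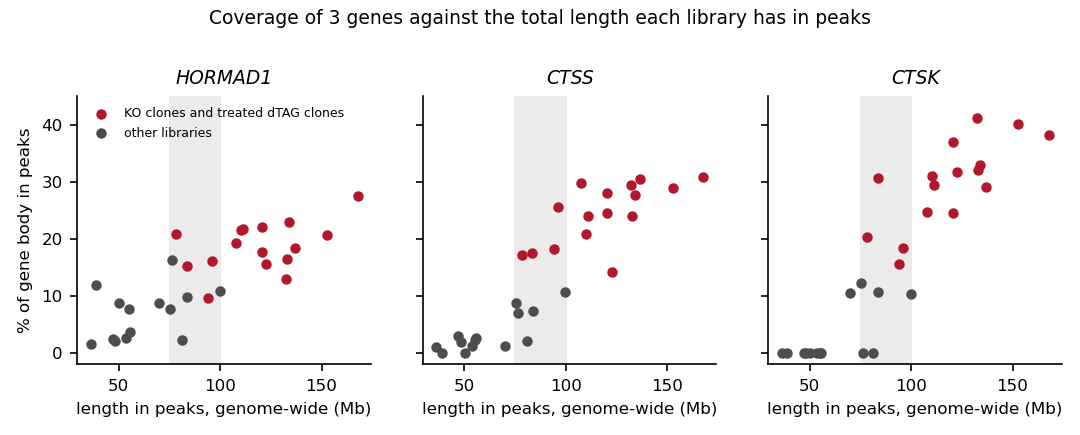
Percent of gene body in peaks (y axis) against the total length in peaks of each library in Mb (x axis), 1 point per library, for HORMAD1, CTSS and CTSK; the grey band is the 75 to 100 Mb range. Coverage is higher in libraries with more length in peaks, and inside the band the red libraries lie above the grey ones for CTSS and CTSK but not for HORMAD1.

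Over the 15 group means, CTSK fell into a low and a high set. The low set ran from 0%, in the KO parental line, the dTAG parental line at day 0 and clone 11 at day 0, to 6.14% in the dTAG parental line at day 7. The high set ran from 23.6% in KO clone 12 to 34.7% in clone 8 at day 21. The step of 17.5 points between the sets restates how CTSK was chosen and carries no test. Within the high set no step between neighbouring groups exceeded 4.58 points, less than the SD within groups, which was 7.46 points pooled over the 15. For CTSS the low set ended at 6.58% in the dTAG parental line at day 21 and the high set began at 16.1% in KO clone 12. HORMAD1 had no such gap: the dTAG parental line at day 0 averaged 14.0%, above KO clone 12 at 12.6%.

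The untagged line addresses whether the compound itself goes with a change. CTSK was 0% in both dTAG parental libraries before treatment. It was 12.3% and 0% on day 7, 10.7% and 0% on day 14, and 10.4% and 0% on day 21. The covered library was replicate 1 on each treated day, and replicate 1 also had the longer list on all days (75.3 to 99.8 Mb, against 39.0 to 55.7 Mb in replicate 2); the part of list length in these values was not tested. The day 21 difference was 5.18 points (SE 7.18, 95% interval -10.1 to 20.5, limma adjusted p = 1). The differences at days 7 and 14 were 6.14 and 5.33 points, also with limma adjusted p = 1. CTSS differed by 3.11 points at day 21 (SE 3.85, limma adjusted p = 1). HORMAD1 was lower at every treated day, with differences of -9.17 points (day 7), -5.32 points (day 14) and -6.79 points (day 21), each with limma adjusted p = 1. No member was called at any day. Limma called 0% of all genes at days 7 and 14 and 0.0143% at day 21. At an unadjusted p under 0.05, 292, 349 and 536 genes passed at days 7, 14 and 21.

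CTSK coverage at days 14 and 21 was not detectably different from day 7. Day 14 differed from day 7 by 1.80 points (SE 5.07, 95% interval -9.01 to 12.6) and day 21 from day 7 by 5.50 points (SE 5.07, 95% interval -5.32 to 16.3), both with limma adjusted p = 1. None of the 5 tested members was called in either comparison, where limma called 0.0572% and 0.472% of all genes. The intervals leave room for a further rise of more than 10 points. Clones 8 and 11, averaged over the 3 treated days, differed by -3.27 points for CTSK (SE 4.14, 95% interval -12.1 to 5.56, limma adjusted p = 1), and none of the members was called, beside 0.0358% of all genes.

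In untreated clones 8 and 11, no member was called against the line they were made from. CTSK was higher by 2.62 points at day 0 (SE 6.21, 95% interval -10.6 to 15.9, limma adjusted p = 1). HORMAD1 averaged 5.33% in the clones and 14.0% ± 3.07 in the parental line (SD, n = 2 for the latter), and this difference was not called either (limma adjusted p = 1). Limma called 0% of all genes in this comparison, and 471 genes passed at an unadjusted p under 0.05.

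KO clones 3 and 12 differed in CTSS but not detectably in CTSK. CTSS was higher in clone 3 by 14.5 points (SE 3.85, limma adjusted p = 0.0414). It was the only member called in a comparison where 3.96% of all genes were called, 540 of them higher in clone 3. The CTSS call was lost when any of the 4 KO libraries was left out (limma adjusted p = 0.0983 to 0.202). It was also lost when coverage was scaled by the length in peaks, with a difference of 4.56 points (limma adjusted p = 1); clone 3 had 168 and 137 Mb in peaks and clone 12 had 123 and 94.0 Mb. CTSK was higher in clone 3 by 10.0 points (SE 7.18, limma adjusted p = 0.612) and HORMAD1 by 10.3 points (SE 4.01, limma adjusted p = 0.197).

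Base by base, most of the new coverage of the block lay between the first base of HORMAD1 and the last of CTSK. In this stretch of 110 kb the NSD2-depleted libraries had 15.9% to 30.0% of bases in peaks (median 23.3%) and the others 1.21% to 11.5% (median 3.24%). The intergenic parts took a like share. Between HORMAD1 and CTSS the mean was 17.5% in the NSD2-depleted libraries and 1.12% in the others, and between CTSS and CTSK it was 23.7% and 5.86%. Beyond CTSK, the 1.45 kb gap before ARNT was covered at all in 6 of 16 NSD2-depleted libraries and in none of the other 14. On the other side, the gap between ENSA and GOLPH3L had 10.3% of its bases covered in the former and 2.34% in the latter.

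**Figure D3:**
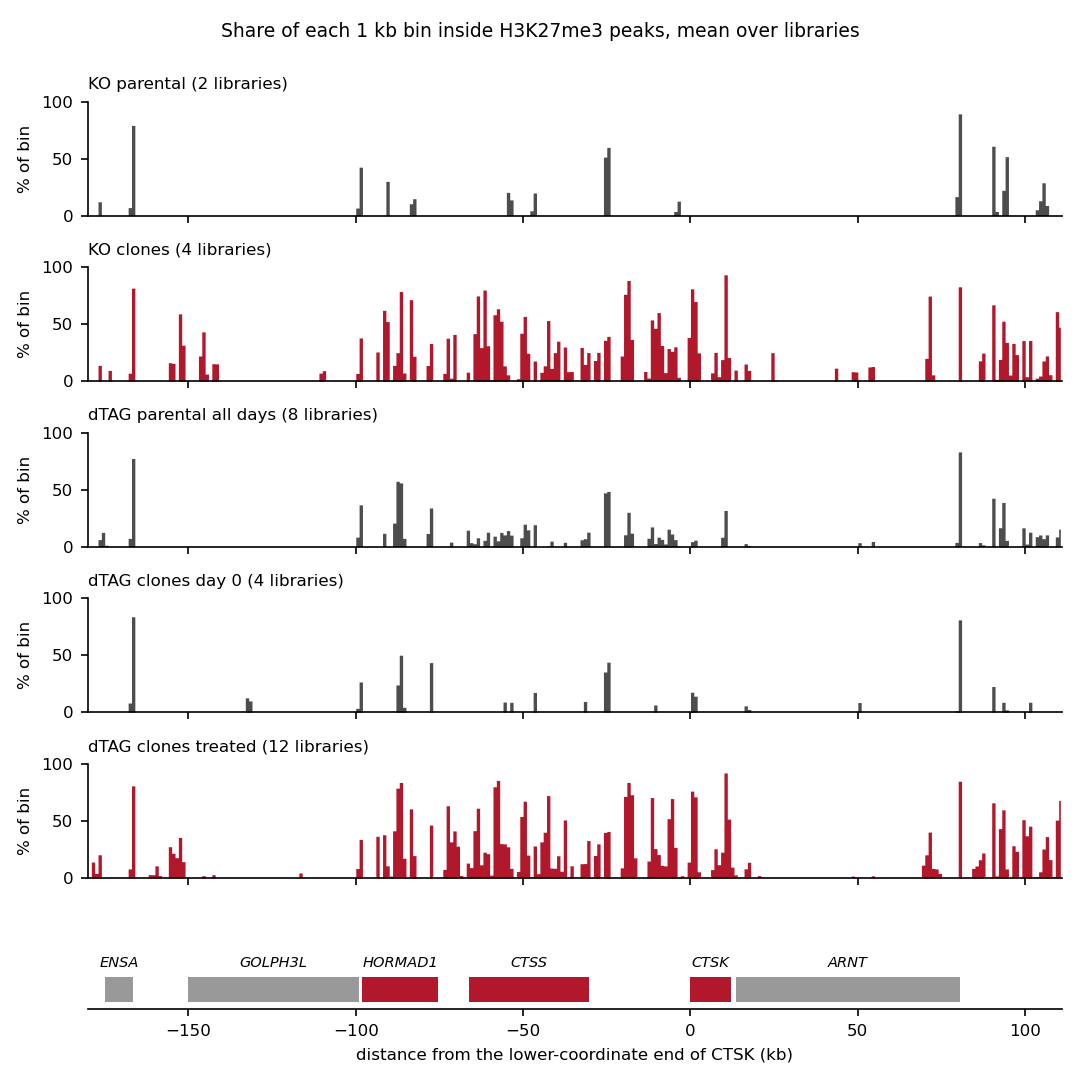
Mean percent of each 1 kb bin inside peaks (y axis, 0 to 100%) against the distance from the lower-coordinate end of CTSK (x axis, kb), for 5 sets of libraries, with the 6 gene bodies below. The KO clones and treated dTAG clones have many bars over HORMAD1, CTSS and CTSK and between them, few over GOLPH3L and ARNT, and the tall bars at the ENSA and ARNT ends are alike in every set.

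The new coverage was patchy and did not form a single domain. New bases were defined as those in peaks in at least 3 of 4 libraries and in none of the control libraries of the experiment, joined over gaps of at most 3 kb. By that rule 2 stretches overlapped CTSK in every experiment, 1 near each end of the gene. In the KO clones they were chr1:150795750-150798002, with 2253 new bases, and chr1:150803993-150807351, with 1510. The first of these began outside the gene, whose lower-coordinate end is at 150796208, so not all of its new bases lay in CTSK. At day 7 they were chr1:150796492-150797864 (110 new bases) and chr1:150805994-150807832 (1839), and at day 14 chr1:150796448-150798000 (290) and chr1:150805967-150807403 (1437). At day 21 they were chr1:150796502-150798002 (238 new bases) and chr1:150803997-150806936 (1319). In the degron clones the first stretch overlapped a peak of a day 0 library: without replicate 1 of clone 8 at day 0, new bases in CTSK went from 1.95 to 3.21 kb at day 7, from 1.73 to 2.99 kb at day 14 and from 1.56 to 2.82 kb at day 21. Joined over 10 kb, the same bases gave stretches of 49.5 kb in the KO clones and 30.7 kb at day 21, so the length depends on that choice. Without joining, the KO clones had 17.8 kb of new bases in the 255 kb block, of which 4.72 kb lay in CTSS, 3.30 kb in CTSK, 2.67 kb in HORMAD1, 1.49 kb in ARNT, 0.222 kb in GOLPH3L and 0 in ENSA. The day 21 clones had 14.3 kb, with 5.10 kb in CTSS, 1.56 kb in CTSK and 2.75 kb in HORMAD1. Between HORMAD1 and CTSK the KO clones and the day 21 clones shared 8.27 kb of new bases, which is 54.5% of the former and 58.0% of the latter. The controls of the 2 experiments are different libraries.

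**Figure D4:**
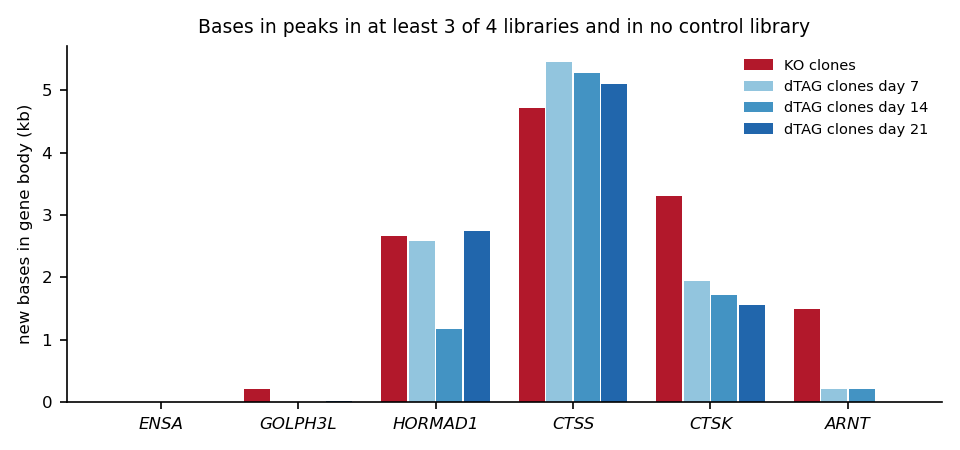
New bases in kb (y axis), those in peaks in at least 3 of 4 libraries and in no control library, within each gene body (x axis), for the KO clones and the dTAG clones at days 7, 14 and 21. CTSS holds the most new bases in each experiment, 4.72 to 5.44 kb, followed by CTSK or HORMAD1, and ENSA holds none.

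Some places were covered in most of the NSD2-depleted libraries, with KO and degron clones pooled. Over the block, 26 segments were in a peak in at least 12 of the 16 NSD2-depleted libraries, and 23 of them lay between the first base of HORMAD1 and the last of CTSK. Of the 16 libraries 12 are from treated degron clones and 4 from KO clones, so a segment could be picked without any KO library. The 23 include the invariant peak between CTSS and CTSK, and HORMAD1 segments touched in 8 and 9 of the other 14 libraries. CTSK held 2 of the 26 segments. The first (chr1:150796502-150797923, 1422 bp) was touched by a peak in all 16 NSD2-depleted libraries and in 3 of the other 14, with a median -log10 q of 2.83 in the former. The second (chr1:150806028-150807351, 1324 bp) was likewise touched in 16 and 3, with a median of 2.56. In CTSS, a segment of 872 bp (chr1:150731961-150732832) was touched in 15 of 16 and 1 of 14 libraries, and one of 697 bp (chr1:150753042-150753738) in 14 and 0. In HORMAD1, the segment at chr1:150712586-150713338 was touched in 16 and 1, while the one at chr1:150718313-150718711 was touched in 15 and 10. These counts follow from how the segments were picked and carry no test.

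Covered length takes no account of gene borders. The block held 3.83 to 4.81 kb in peaks in the KO parental libraries, 23.1 to 40.6 kb in the KO clones, 3.70 to 6.10 kb in the degron clones at day 0 and 22.2 to 38.4 kb once treated. In the dTAG parental line it held 5.32 and 11.6 kb at day 0 and 5.51 to 14.6 kb at the treated days. Exact two-sided permutation tests were run on 5 contrasts in 2 windows, the block and CTSK with 25 kb on each side, 10 tests in all. After adjustment over the 10, only the tests of treated clones 8 and 11 had enough libraries to pass, with a smallest possible p of 0.00216. Those tests shuffled 6 libraries per clone without regard to day. Each side is a single clone, so their p measures only the spread between libraries. The smallest possible exact permutation p was 0.0286 for day 21 against day 7, 0.0357 for the treated against the untreated dTAG parental line, 0.0667 for the untreated clones against that line and 0.333 for KO clone 3 against 12, so these 4 contrasts could not pass. In the block, day 21 and day 7 of the degron clones differed by 1.57 kb (exact permutation p = 0.686, adjusted 0.895) and treated clones 8 and 11 by -0.790 kb (exact permutation p = 0.797, adjusted 0.895). KO clone 3 exceeded clone 12 by 13.5 kb in the block.

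Genes further out were not all alike. Of 30 other protein-coding genes within 500 kb of CTSK, limma called 2 as gained in the KO contrast (6.67%, against 18.7% of all genes) and 6 at day 21 (20.0%, against 26.9%), and none as lost. The median difference of the 30 was 1.06 points for KO and 1.98 for day 21, beside 1.46 and 2.05 points over all tested genes. MCL1, an anti-apoptotic gene and the nearest one beyond ENSA, was 9.01% ± 6.54 covered in the KO parental line (n = 2) and 4.78% ± 1.71 in the KO clones (n = 4). In the degron clones the order was the opposite: day 21 libraries averaged 14.4% ± 1.78 and those of day 0 6.60% ± 4.69 (SD, n = 4 each), and limma called neither difference (adjusted p = 0.578 and 0.0843). CTXND2, the nearest beyond ARNT, was 5.24% ± 0.0243 covered in the KO parental line (n = 2) and 16.0% ± 3.04 in the KO clones (n = 4), and in the degron clones 0.743% ± 0.866 at day 0 and 18.6% ± 8.13 at day 21 (SD, n = 4 each). Limma called the day 21 difference (adjusted p = 0.00169) and not the KO one (adjusted p = 0.124). ANXA9, further out and named after its values were seen, averaged 6.22% in the KO parental line and 25.4% in the KO clones (limma adjusted p = 0.0690). In the degron clones it averaged 5.38% at day 0 and 30.8% at day 21 (limma adjusted p = 0.00305), so gains of this size were not confined to the 6 genes. The highest mean coverage in the neighbourhood was that of LOC124904417 (98.6%), ADAMTSL4 (48.0%) and SEMA6C (38.3%).

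Of 13 other cathepsins in the list, 12 were tested. Limma called 1 as gained in the KO contrast (8.33%, against 18.7% of all genes) and 3 at day 21 (25.0%, against 26.9%), none was lost, and none was called in the dTAG parental line at day 21. Their median difference was 3.03 points in the KO contrast and 4.45 at day 21, against 1.46 and 2.05 for all genes. CTSE, an aspartic protease elsewhere on chromosome 1, was 39.7% ± 8.17 covered at day 21 and 18.2% ± 11.7 before treatment (SD, n = 4 each, limma adjusted p = 0.0401). In the untagged line CTSE also had more coverage at day 21, 29.3% ± 2.81 against 12.5% ± 17.7 (SD, n = 2 each, limma adjusted p = 1). In the KO contrast CTSE differed by 18.0 points (SE 9.08) without passing (limma adjusted p = 0.208). CTSG differed by 22.1 points at day 21 (SE 10.3, limma adjusted p = 0.130) and CTSF by 13.6 points (SE 10.9, limma adjusted p = 0.415).

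Cystatins, the natural inhibitors of cysteine cathepsins, had 10 of 13 genes tested, with 1 gained in the KO contrast (10.0%, against 18.7% of all genes) and 1 at day 21 (10.0%, against 26.9%). The gene called at day 21 was CSTA, at 17.5% ± 9.81 against 0 at day 0 (SD, n = 4 each, limma adjusted p = 0.00814), and the one in the KO contrast was CST1, at 8.40% ± 7.19 in the KO clones (SD, n = 4) against 0 (SE 1.46, limma adjusted p = 0.000636). The limma SE rests on the spread within all groups, and CST1 was 0 in every degron clone library at days 0 and 21. This SE is thus small beside the SD of the KO clones. CST6 differed by 32.3 points at day 21 without passing (SE 13.4, limma adjusted p = 0.0871). Of 15 osteoclast genes, 14 were tested, with 3 gained in the KO contrast (21.4%, against 18.7% of all genes) and 5 at day 21 (35.7%, against 26.9%), and none lost. ITGB3, an integrin subunit of osteoclasts, averaged 17.3% ± 6.70 with NSD2 knocked out and 6.14% ± 2.44 in the parental line (SD, n = 4 and 2, limma adjusted p = 0.0204). TNFRSF11A, the receptor RANK, was 13.4% ± 4.77 and 2.58% ± 0.607 covered (SD, n = 4 and 2, limma adjusted p = 0.0173). At day 21 DCSTAMP, needed for osteoclast fusion, had the second largest difference, 16.7 points (SE 3.15, limma adjusted p = 0.000787). ACP5, the osteoclast acid phosphatase, had the largest in both contrasts, 13.1 and 18.1 points, and passed in neither (limma adjusted p = 0.591 and 0.219). Its day 21 difference in the untagged line was larger, 22.1 points (SE 14.4, limma adjusted p = 1).

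The tested genes whose group means followed CTSK most closely, among 13909 at least 1 Mb away, were GRHL2 (Pearson r = 0.993), MKLN1 (0.991), NCALD (0.990), WDPCP (0.990) and KCNAB1 (0.989), over the 15 group means. KCNAB1, a potassium channel subunit gene, was 12.5% covered on average in the NSD2-depleted libraries and 0.800% in the others. Within the block the same r was 0.978 for CTSS, 0.887 for HORMAD1, 0.785 for ARNT, 0.388 for GOLPH3L and 0.109 for ENSA. The total length in peaks of the groups had r = 0.947 with CTSK, and the median over the genes compared was 0.430. These points share their libraries and their list lengths, so the values are descriptions.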

How the data were processed

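H3K27me3 CUT&Tag was analysed in 30 KMS-11 libraries, 15 groups of 2. Another 10 libraries in the labels (IgG, H3K27ac and H3K4me3) were not analysed here. Per the submitters' processing notes, which name no steps, the authors worked on hg38 with MACS3 3.0.2, fastp 0.24.0, Bowtie2, Picard, SAMtools, DESeq2, ChIPseeker 1.42.1 and deepTools 3.5.1. The deposited broadPeak lists, 1 per library, hold for each peak a score (the -log10 q times 10), a fold or ratio of enrichment, and the -log10 of its p and q. These values are the authors' and were used only to filter, rank or describe peaks within a list. How the peaks were called, beyond these names, is not given in the sources used here. The lists held 34740 to 205920 peaks and 36.1 to 168 Mb. Read depth was not given; the background pileup was solved from the fold and p of short peaks, assuming a pseudocount of 1 and a genome-wide background.

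Overlapping peaks were merged, and each of 19447 RefSeq protein-coding genes of at least 1 kb (GRCh38.p14, the assembly of hg38) was scored by the percent of its bases in peaks. Genes with a mean between 1% and 99% (13975) were fitted with limma 3.58.1 in R 4.3.3 (1 mean per group, trended eBayes, 15 residual degrees of freedom), with Benjamini-Hochberg adjusted p under 0.05 as the call. The fit was also run on simulated data with independent normal noise. These lacked the floor and the clone and list-length differences of the real values, so they do not show how the fit behaves on those. Locus lengths were compared by exact permutation. Coverage, permutations and figures used pandas 2.3.3, numpy 2.4.6, scipy 1.17.1 and matplotlib 3.10.9 in Python 3.11.15. The replicates of a group are 2 libraries, and where no label names separate cultures the p-values measure only the spread between these libraries, which may be technical.

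The members, gene lists and tests were chosen with earlier results of these data known. Named genes were the 6 members; the nearest coding gene on each side and the 3 of highest mean coverage within 500 kb of CTSK; the 3 of largest difference in each list (cathepsins, cystatins, osteoclast genes); and the 5 of highest correlation with CTSK at least 1 Mb away. The genes named from a list beside these were chosen after their values were seen.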

Additional observations from a re-analysis of the deposited data

Results flagged for a closer look

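In 30 sets of 4 libraries (6 genes in the KO clones and in the degron clones at 4 days), the highest or lowest library stood apart from the others by Dixon's test in 8 sets. Chance flags about 1 in 20 where values are normal and come from 1 population. Each set here pools 2 clones, and most flagged sets had values at or near their floor. The count of 8 therefore cannot be set against that rate. In 3 of these sets, CTSK at day 0 and ENSA at days 0 and 7, the other libraries were tied and any different value stands apart. CTSK at day 0 was one, with 10.5% in replicate 1 of clone 8 and 0% in the other 3 libraries; that library had the longest list of the 4, 69.9 Mb. For ENSA, replicate 2 of KO clone 12 was at 10.2%, replicate 1 of clone 8 at day 0 at 6.26%, and replicate 2 of clone 11 at day 7 at 5.83%. For GOLPH3L, replicate 1 of KO clone 3 was at 3.80%, replicate 2 of clone 8 at day 0 at 1.77%, replicate 1 of clone 11 at day 14 at 0.642%, and replicate 2 of clone 11 at day 21 at 1.10%.

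The change in CTSS differed between KO clones 3 and 12 by 14.5 points (limma adjusted p = 0.0414), a call that did not last without any 1 of the 4 KO libraries (adjusted p = 0.0983 to 0.202). HORMAD1 moved in opposite ways in the dTAG parental line and the degron clones. Against day 0 it changed by -9.17 points at day 7, -5.32 at day 14 and -6.79 at day 21 in the parental line, and by 14.0, 12.0 and 14.8 points in the clones. In the parental line every treated library was below both day 0 libraries. All treated days share these day 0 libraries, at 16.2% and 11.8%, so the comparisons are not independent. The share of all genes that separate in this way was not counted. The difference between these effects was not tested.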

How the results depend on the processing

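The CTSK differences in KO and at day 21 were above 0 under every alternative except the strictest peak filters. They were 0 and 3.77 points with -log10 q of at least 5, 0 and 0 with a fold of at least 3, 44.1 and 46.0 with peaks joined over 3 kb, 19.5 and 20.4 with 5 kb added on each side of the gene, 19.9 and 22.8 when scaled by length in peaks, 5.25 and 10.4 with lists shortened to equal length, and for day 21 22.0 with -log10 q of at least 2. Leaving out 1 library gave 24.6 to 32.7 and 27.9 to 33.3 points. The locus length difference, 25.8 kb in KO and 26.0 kb at day 21, became 15.6 and 18.3 kb with -log10 q of at least 2, 0.445 and 2.95 kb with at least 5, and 3.81 and 7.00 kb with equal lists, and ran from 22.3 to 28.2 and 23.6 to 28.9 kb without 1 library.

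The longest stretch of new bases on CTSK, or the nearest one where none lay on it, was unstable (3.36 kb in KO and 2.94 kb at day 21). In KO it was 49.5 kb with gaps of 10 kb joined, 1.93 kb at -log10 q of at least 5 (then 176679 bp from CTSK), 0.867 kb with equal lists (not on CTSK), 0.863 kb in all 4 libraries, and 0.863 to 3.36 kb without 1 library. At day 21 it was 0.977 kb with 1 kb gaps, 30.7 kb with 10 kb gaps, 1.42 kb and 0.509 kb with -log10 q of at least 2 and 5, 0.362 kb with equal lists, 5.14 kb in at least 2 of 4 libraries, 0.300 kb in all 4, and 0.977 to 2.94 kb without 1 library. Leaving out a library also makes the rule stricter, since 3 of 3 must then hold the base.

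CTSK in KO clone 3 against 12 turned to -10.5 points with equal lists (adjusted p = 0.603) and ran from 1.94 to 18.1 without 1 library. The other CTSK differences without 1 library ran from 2.34 to 8.66 (day 21 against 7), 0 to 10.4 (parental day 21), -6.03 to -0.514 (clone 8 against 11) and 0 to 5.24 (untreated clones); none was called. Day 14 against day 7 turned to -0.301 with joined peaks and ran from -2.33 to 5.94 without 1 library, below 0 for 4 of the libraries. CTSS in clone 3 against 12 lost its call with -log10 q of at least 2 (17.2) or 5 (4.23), fold of at least 3 (2.24), joined peaks (27.5), 5 kb flanks (12.5), scaling (4.56), equal lists (2.74) and only the compared groups (14.5), and ran from 12.5 to 16.6 without 1 library. With a fold of at least 3, CTSS turned to -0.516 (KO) and -0.326 (day 21) and HORMAD1 to -1.57 (day 14) and -3.32 (day 21). ARNT turned to -0.159 in KO at -log10 q of at least 5. In the parental line at day 21, CTSS turned to -0.384 with -log10 q of at least 2 and ran from -0.931 to 7.16 without 1 library, and HORMAD1 to 1.18 with joined peaks. The causes were not tested.

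Genes called in KO and at day 21 (2614 and 3766) fell to 392 and 1149 with -log10 q of at least 2, 0 and 37 with at least 5, 187 and 593 with a fold of at least 3, and 478 and 1068 with equal lists. KO calls were 1720 with joined peaks, 919 with only the compared groups, and 1602 and 1182 without KO parental replicate 1 or 2; day 21 calls were 6629 when scaled. Clone 3 against 12 (553) went to 109, 3, 22, 39, 45, 977, 868 and 0 with -log10 q of at least 2, of at least 5, a fold of at least 3, scaling, equal lists, no filter, the replicate block and only the compared groups, and to 250 and 179 without replicate 1 of clone 3 or replicate 2 of clone 12.

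Replicate numbers are not stated to pair libraries; 84 of 105 pairs of groups had same-numbered libraries that deviated together (r above 0.1, median 0.187). With the replicate block the CTSK differences were the same, 28.6 points for KO and 30.6 for day 21, and CTSK was called in none of the contrasts that did not serve to choose it (adjusted p = 0.340 for clone 3 against 12); CTSS in clone 3 against 12 had adjusted p = 0.00955. Short lists limit these results: a base outside a peak in a short list can still carry the mark.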
